A study of Mus musculus with 8 samples.

Results

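Transcripts of 9 genes of the p53 pathway and the Bcl2 family were measured in the E15.5 hippocampus of mouse embryos from pregnancies with and without maternal hypertension. The genes were taken by name from a table of 16397 genes: Trp53, its regulator Mdm2, its targets Cdkn1a, Bax and Bbc3, and the Bcl2-family genes Bcl2, Bcl2l1, Bcl2l11 and Mcl1. All 9 were present and all 9 passed the count criterion, which left 13707 protein-coding genes for testing. C57BL/6J dams carried a micro-osmotic pump from E12.5 that released either the thromboxane A2 analog U-46619, which raises maternal blood pressure and restricts fetal growth (IUGR), or an ethanol vehicle (sham). Total RNA of 4 IUGR and 4 sham hippocampi was depleted of rRNA and sequenced in 1 lane. Samples are named by their labels: T1-1, T1-3, T1-4 and T1-5 are IUGR, and S1-4, S1-6, S3-1 and S3-4 are sham. Values are listed in that order throughout. Every IUGR label begins with T1, and no source explains the prefix or says whether embryos came from separate litters. The p values therefore measure the spread between these samples. No genetic alteration is labelled for either group.

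The protein p53 is a transcription factor that is made continuously and destroyed quickly. Mdm2 marks it for degradation, and stress signals such as DNA damage release it from Mdm2, so that much of the control of p53 lies in the protein and not in its transcript. Once stable, it activates genes that arrest the cell cycle (Cdkn1a), that limit p53 itself (Mdm2) and that start apoptosis (Bax, Bbc3). Proteins of the Bcl2 family decide whether the outer mitochondrial membrane is opened: Bcl2, Bcl2l1 (Bcl-xL) and Mcl1 keep it closed, Bax forms the pore, and BH3-only proteins such as Bbc3 (Puma), Bcl2l11 (Bim) and Pmaip1 (Noxa) bind the protective members. In the developing brain these genes set how many progenitors and young neurons survive.

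Totals ranged from 12919546 to 16672463 counts over the IUGR libraries and from 11212632 to 15405748 over the sham libraries. Levels are given as CPM, counts divided by the TMM-adjusted library size on the usual scale. Several properties of the libraries moved with the groups or split them. The summed level of 10 choroid plexus markers, to which Ttr contributed most, ranged from 42.5 to 1153 CPM over IUGR samples and from 5338 to 11877 CPM over sham samples, and 3 of the 8 tested markers were lower in IUGR by the criteria below. The summed level of 10 neuronal markers ranged from 5353 to 5852 CPM over IUGR samples and from 4135 to 5196 CPM over sham samples, with 9 of 10 higher and none called by edgeR (5 at an unadjusted p under 0.05; DESeq2 and limma-voom called 1 each). All 8 hippocampal markers were detected in every sample and all 8 had lower fitted levels in IUGR (median log2 fold change -0.48), with 2, Wnt8b and Prox1, at an unadjusted p under 0.05 and 1, Wnt8b, called. Fitted levels were higher in IUGR for 7 of 7 meningeal (median log2 fold change 1.12), 10 of 10 erythroid (0.49), 7 of 7 microglial (0.30) and 6 of 7 endothelial markers (0.57), with none called by edgeR, DESeq2 or limma-voom and, at an unadjusted p under 0.05, 0, 1, 0 and 2 of them. The mitochondrial rRNA mt-Rnr1, which the depletion kit should remove, took 0.0176% to 0.0872% of counts in 4 libraries (S3-1, T1-5, S1-4, T1-1) and 1.29% to 2.53% in the other 4 (S1-6, T1-3, T1-4, S3-4), so each set held 2 IUGR and 2 sham libraries. Xist, transcribed from the inactive X chromosome, was between 948 and 1593 CPM in T1-3, T1-4, T1-5 and S1-6 and between 2.12 and 5.85 CPM in the other 4. The paper used hippocampi of both sexes, and the sex of single samples is not labelled. High Xist was unequally spread over the groups, so sex and treatment cannot be fully told apart.

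None of the 9 genes passed the test between IUGR and sham. A gene was called when its adjusted p in edgeR's quasi-likelihood test, corrected over all 13707 genes, was at most 0.05 and its log2 fold change was at least 1 in either direction. By this rule 0 of 9 were called, against 1.46% of all tested genes (200 genes, of which 14, or 0.102%, were higher in IUGR), and DESeq2 and limma-voom also called 0 of 9. By the adjusted p alone 0 of 9 passed, against 1.55% of all genes. At an unadjusted p under 0.05 there was 1 of 9, Bcl2, against 11.1% of all genes. The IUGR and sham samples did not overlap in 1 of 9, again Bcl2, against 7.14% of all genes. The 9 log2 fold changes ran from -0.44 to 0.28 with a median of -0.04, and the median of all tested genes was -0.02. With tissue as the starting material, fewer cells of a type and less RNA per cell cannot be told apart.

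**Figure D1:**
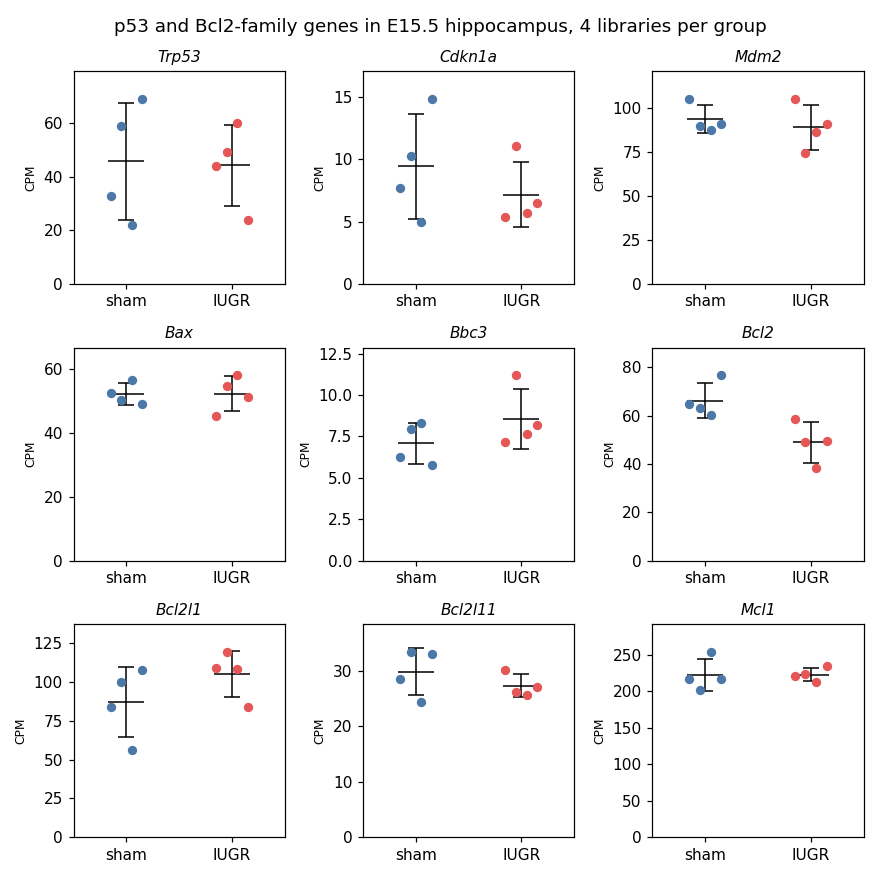
Level of each of the 9 genes in CPM (y axes from 0, scaled per gene) in sham (blue) and IUGR (red); each point is 1 library, the horizontal mark is the group mean and the bar is 1 SD (n = 4). Only for Bcl2 do all IUGR points lie below all sham points, and Trp53 and Cdkn1a spread about 3-fold over the 8 libraries (3.15 and 3.02 from lowest to highest).

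**Figure D2:**
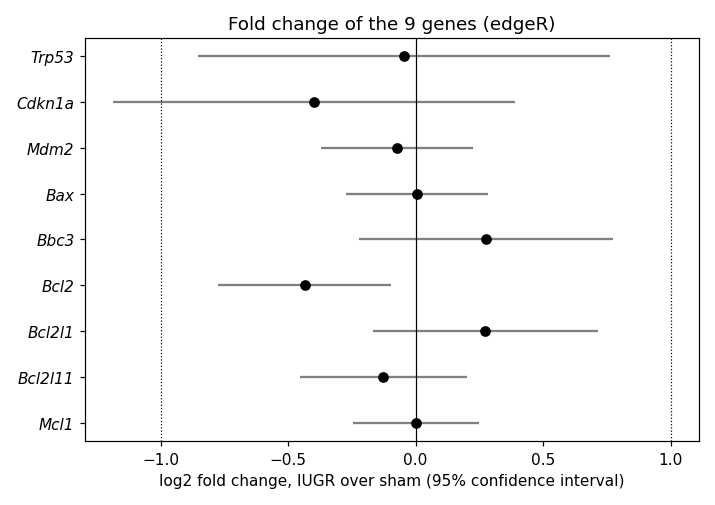
log2 fold change of IUGR over sham (x axis) for the 9 genes, with its 95% confidence interval from edgeR's fit; dotted lines mark the fold criterion of 1 in either direction. The interval of Bcl2, -0.78 to -0.09, lies wholly below 0 before correction over all genes, and those of the other 8 contain 0.

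Per length of exon the 9 genes differed far more among themselves than between the groups. Mcl1 was the most abundant at 65.0 ± 6.41 CPM per kb in sham (SD, n = 4), and Bax followed at 33.1 ± 2.12 CPM per kb. Bcl2l1 at 18.9 ± 4.95 and Mdm2 at 18.4 ± 1.58 CPM per kb did not differ beyond their spread. Trp53 came next at 11.3 ± 5.44 CPM per kb, with a range of 5.43 to 17.1 that included the level of Bcl2 at 7.23 ± 0.791 CPM per kb. Bcl2l11 at 3.71 ± 0.524, Bbc3 at 3.34 ± 0.586 and Cdkn1a at 2.66 ± 1.19 CPM per kb overlapped one another. Mcl1 protein is short-lived and depends on steady synthesis, and its transcript was the highest of the 9 in IUGR as well, at 65.2 ± 2.65 CPM per kb. In IUGR the order was the same except that Bbc3, at 4.03 CPM per kb, stood above Bcl2l11, at 3.40, a pair whose ranges overlapped in sham.

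Trp53 encodes p53 and lies at chr11:69580359-69591873 on the plus strand of GRCm38. Its level was 44.1, 49.2, 59.9 and 23.95 CPM in the IUGR samples and 32.7, 58.8, 22.0 and 69.2 CPM in the sham samples. Low and high samples occurred in both groups, which overlapped over nearly their whole ranges. The log2 fold change was -0.04 (SE 0.36, 95% confidence interval -0.85 to 0.76, adjusted p = 0.9995), an interval that spans levels from 0.554-fold to 1.70-fold of sham. The within-group SD of its log2 CPM was 0.67, larger than in 94.7% of tested genes.

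The levels of Trp53 were low in the libraries with little mt-Rnr1 and high in those with much of it, in both groups. Placed in order of mt-Rnr1, from 189 CPM in S3-1 to 27734 CPM in S3-4, the libraries S3-1, T1-5, S1-4, T1-1, S1-6, T1-3, T1-4 and S3-4 had Trp53 levels of 22.0, 23.95, 32.7, 44.1, 58.8, 49.2, 59.9 and 69.2 CPM. The 4 libraries with lower mt-Rnr1 reached 44.1 CPM at most and the 4 with higher mt-Rnr1 began at 49.2 CPM, a ratio of means of 1.93. Trp53 was the only 1 of the 9 genes whose levels did not overlap between these sets, against 6.63% of all tested genes. Bcl2l1 and Cdkn1a were also higher in the set with more mt-Rnr1 (ratios of means 1.31 and 1.72), with overlap. The sets were formed after the data were seen, and the part of mt-Rnr1, or of anything that goes with it, in the level of Trp53 was not tested.

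Between IUGR and sham, Trp53 showed no single direction across these sets. Its log2 fold change was 0.35 among the 4 libraries with lower mt-Rnr1 and -0.18 among the 4 with higher mt-Rnr1 (2 against 2 in each). With the log2 CPM of mt-Rnr1 as a covariate it was -0.07 and its SE went from 0.36 to 0.17. The 3 genes whose log2 CPM followed that of Trp53 most closely over the 8 samples, among 11906 genes, were Eif3b, a subunit of the translation initiation factor eIF3 (r = 0.989), Mdh2, mitochondrial malate dehydrogenase (r = 0.986), and Wbp11, a splicing protein (r = 0.982). Their levels in the 8 samples ran from 98.6 to 262, 114.6 to 194.3 and 38.3 to 99.1 CPM. These correlations describe 8 libraries that share the mt-Rnr1 split.

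**Figure D3:**
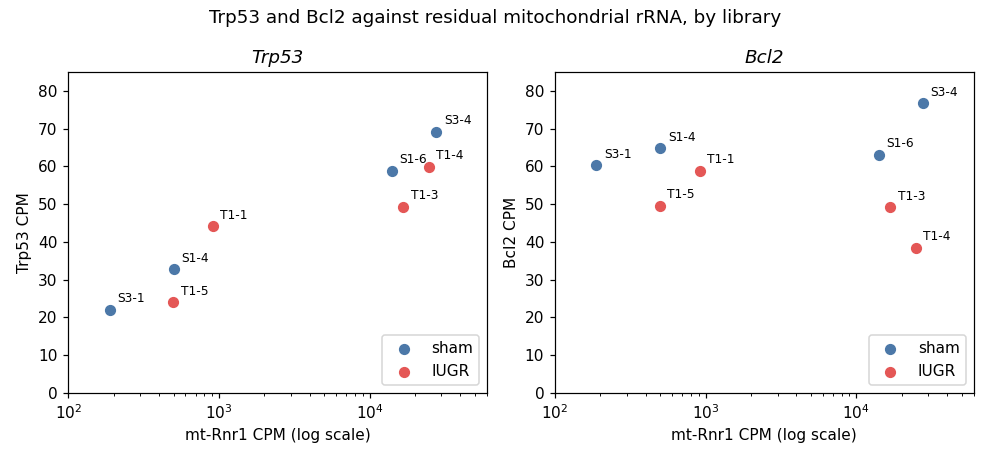
Trp53 (left) and Bcl2 (right) in CPM (y axes) against mt-Rnr1 in CPM (x axes, log scale), 1 point per library, sham blue and IUGR red. Trp53 runs from 22.0 CPM in S3-1, with the least mt-Rnr1, to 69.2 CPM in S3-4, with the most, and every IUGR point of Bcl2 lies below every sham point, with the lowest level, 38.3 CPM, in T1-4.

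Mdm2, the ubiquitin ligase that degrades p53 and is itself switched on by it, lies at chr10:117688875-117710758 on the minus strand. It measured 105.1, 74.4, 86.2 and 90.7 CPM in IUGR and 105.5, 90.0, 87.9 and 91.1 CPM in sham. Both groups had 1 sample near 105 CPM, and T1-3 was the lowest of the 8. Its log2 fold change was -0.07 (SE 0.13, interval -0.37 to 0.23, adjusted p = 0.9995). Mdm2 varied 1.42-fold over the 8 libraries while Trp53 varied 3.15-fold.

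Cdkn1a encodes p21, the inhibitor of cyclin-dependent kinases through which p53 halts the cell cycle, and lies at chr17:29090976-29100727 on the plus strand. Its level was low, with 5.40, 11.1, 5.73 and 6.46 CPM in IUGR and 7.67, 10.3, 4.94 and 14.9 CPM in sham, from 63 to 209 counts per library. The groups overlapped, with the highest level in S3-4 and the lowest in S3-1, both sham. The log2 fold change was -0.40 (SE 0.36, interval -1.19 to 0.39, adjusted p = 0.947), and it was -0.0874 without S3-4 and -0.67 without T1-3, the highest sample of each group. The genes that followed Cdkn1a most closely were 1700030J22Rik (r = 0.972), Kctd14 (r = 0.946) and Fam3a (r = 0.939) over the 8 samples.

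The promoters of the 4 members in which a p53 motif was found near a start are shown. The p53 decamer consensus, which reads the same on both strands, was searched in RefSeq promoters of GRCm38.p6, from 250 bases before to 50 bases after each start. All 9 members were found among these promoters, with 15 windows, of which 4 held at least 1 match. Of 32851 windows of all genes, 8.36% held at least 1 match. A pair of matches with a spacer of at most 13 bases stood in 24 windows, or 0.0731%. Cdkn1a was the only member with such a pair: its matches began 73 and 51 bases before the start, with 12 bases between them. Trp53, Mdm2 and Bax each held 1 match, which began 75, 186 and 201 bases before their starts. The excerpts are chr17:29090806-29090968 (plus strand), chr11:69580259-69580318 (plus), chr10:117710910-117710969 (minus) and chr7:45467065-45467124 (minus), written 5′ to 3′ along the gene with the matches in capitals.
Cdkn1a: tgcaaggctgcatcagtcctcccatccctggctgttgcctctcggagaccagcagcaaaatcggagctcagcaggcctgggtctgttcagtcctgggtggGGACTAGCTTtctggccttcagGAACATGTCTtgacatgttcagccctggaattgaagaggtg
Trp53: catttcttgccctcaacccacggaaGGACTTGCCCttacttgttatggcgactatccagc
Mdm2: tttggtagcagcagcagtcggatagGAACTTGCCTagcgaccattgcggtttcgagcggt
Bax: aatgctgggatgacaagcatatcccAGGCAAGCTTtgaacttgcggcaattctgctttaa
A match is a description of the letters, and no match was found in the other 11 windows. Sequence outside the windows was not searched, and binding of p53 was not tested. None of the 4 genes shown passed the test between IUGR and sham.

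Bax, the pore-forming effector, lies at chr7:45461697-45466898 on the minus strand. It was among the steadier genes, with 45.3, 54.8, 58.1 and 51.3 CPM in IUGR and 52.5, 50.5, 56.7 and 49.0 CPM in sham. The lowest and the highest sample were both IUGR, and only 6.97% of tested genes had a smaller within-group SD. Its log2 fold change was 0.01 (SE 0.13, interval -0.27 to 0.28, adjusted p = 0.9995), an interval that spans levels from 0.828-fold to 1.22-fold of sham. A readthrough model, Gm45808, overlaps Bax on the same strand and is not among the genes counted.

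Bbc3 (Puma), a BH3-only protein induced by p53, lies at chr7:16308393-16318205 on the plus strand. It was low as well, with 7.19, 11.2, 7.67 and 8.21 CPM in IUGR and 6.29, 7.96, 8.31 and 5.77 CPM in sham. T1-3 was the highest and S3-4 the lowest, and the groups overlapped. IUGR over sham gave a log2 fold change of 0.28 (SE 0.22, interval -0.22 to 0.77, adjusted p = 0.911), and 0.15 without T1-3.

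Bcl2l11 (Bim), the BH3-only protein of neuronal death after loss of trophic support, lies at chr2:128126038-128162547 on the plus strand. Its level was 30.2, 26.2, 25.7 and 27.1 CPM in IUGR and 28.6, 33.3, 24.4 and 32.9 CPM in sham. A pair of sham samples, S1-6 and S3-4, lay above all IUGR samples, and S3-1 lay below them. IUGR over sham gave a log2 fold change of -0.13 (SE 0.15, interval -0.45 to 0.20, adjusted p = 0.9995).

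Bcl2 was the member nearest to a difference. It lies at chr1:106538178-106714274 on the minus strand, and its protein holds Bax and BH3-only proteins in check. Its level was 58.8, 49.1, 38.3 and 49.6 CPM in IUGR, a mean of 49.0 ± 8.38 (SD, n = 4), and 64.8, 63.1, 60.2 and 76.7 CPM in sham, a mean of 66.2 ± 7.24 (SD, n = 4). All 4 IUGR samples lay below all 4 sham samples, with T1-1 at 58.8 and S3-1 at 60.2 CPM as nearest neighbours. The fitted level in IUGR was 0.740 of that in sham (0.584 to 0.936), a log2 fold change of -0.44 with SE 0.15. The unadjusted p was 0.0171 and the adjusted p was 0.260, so Bcl2 did not pass the test.

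The separation of the groups for Bcl2 was narrow. With RLE size factors, or with no count filter or edgeR's own filter before scaling, the groups overlapped, and the log2 fold change stayed between -0.63 and -0.17 in all 21 alternatives tried, with adjusted p values from 0.192 to 1. Within the libraries with lower mt-Rnr1 the log2 fold change was -0.17 and within those with higher mt-Rnr1 -0.63. The choroid plexus and neuronal markers given above separated the same groups, and their part in the level of Bcl2 was not tested. An antisense gene, D630008O14Rik, and the models Mir3473f and Gm37053 overlap Bcl2 and are not among the genes counted. The strand setting of the counting is not given in the sources used here, so reads of the antisense gene cannot be told apart from those of Bcl2.

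The genes that followed Bcl2 most closely over the 8 samples were Tctn1, of the ciliary transition zone (r = 0.986), Prr5l, a partner of the kinase complex mTORC2 (r = 0.971), and Jph1, a junctophilin (r = 0.970). Their log2 fold changes were -0.36, -0.45 and -0.47, and none was called by edgeR (adjusted p from 0.466 to 0.486).

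Bcl2l1, whose main product Bcl-xL protects young neurons after they leave the cycle, lies at chr2:152780668-152831728 on the minus strand. It was 108.8, 118.9, 108.2 and 84.0 CPM in IUGR and 83.8, 99.9, 56.2 and 107.6 CPM in sham. S3-1 stood alone at the bottom, and 3 of 4 IUGR samples lay above all sham samples. The log2 fold change was 0.27 (SE 0.20, interval -0.17 to 0.71, adjusted p = 0.844), and it was 0.11 without S3-1, the library with the least mt-Rnr1.

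Mcl1, the short-lived protective member on which neural progenitors depend, lies at chr3:95658788-95663176 on the plus strand. It measured 221.4, 223.2, 212.0 and 234.1 CPM in IUGR and 217.0, 201.9, 253.4 and 217.0 CPM in sham. All IUGR values lay inside the sham range. Its log2 fold change was 0.003 (SE 0.11, interval -0.24 to 0.25, adjusted p = 0.9995), and only 3.33% of tested genes had a smaller within-group SD.

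The balance of pore-former and protector was expressed as the log2 ratio of Bax to Bcl2 CPM. It was -0.38, 0.16, 0.60 and 0.05 in IUGR and -0.30, -0.32, -0.09 and -0.65 in sham. T1-1 lay among the sham samples and the other 3 IUGR samples lay above all of them. The group means were 0.11 ± 0.40 and -0.34 ± 0.23 (SD, n = 4), a difference of 0.45. The exact two-sided permutation test over the 8 samples gave p = 0.114, and the smallest p that it can give here is 0.0286. The log2 fold changes of its terms were 0.01 for Bax and -0.44 for Bcl2.

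Among 20 tested regulators of p53, none was called by edgeR, DESeq2 or limma-voom and none had an unadjusted p under 0.05, against 1.46% and 11.1% of all genes by edgeR. The list holds ligases and deubiquitinases of p53, its acetylases, ribosomal proteins that bind Mdm2, and the relatives Trp63 and Trp73. Of the 20, 10 were higher and 10 lower, and the median log2 fold change rounded to 0.00. Among regulators with a mean count of at least 50, the smallest p values belonged to Trp53bp1, a chromatin reader at DNA breaks, with 472 ± 40.5 CPM in IUGR and 416 ± 35.4 CPM in sham (SD, n = 4; log2 fold change 0.18, adjusted p = 0.766), and to Trp73, between 10.03 and 32.3 CPM over IUGR samples and between 12.7 and 42.0 over sham samples (-0.67, adjusted p = 0.8003). Without S3-4 the log2 fold change of Trp73 was -0.38, and without T1-3 it was -1.17. Mdm4, which blocks the transactivation domain of p53, measured 73.8 CPM in IUGR and 71.2 in sham.

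Of 27 further p53 target genes tested, 1 was called, Pmaip1, and it was higher in IUGR, against 1.46% of all genes called and 0.102% called higher. The list gives 7 higher and 20 lower genes, and the median log2 fold change was -0.16, where 55.5% of all tested genes were lower with a median of -0.02. At an unadjusted p under 0.05 there were 7 of 27, 2 higher and 5 lower, against the 11.1% of all genes. The groups did not overlap in 4 of 27, against the 7.14% of all genes. Both directions thus occurred among the targets.

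**Figure D4:**
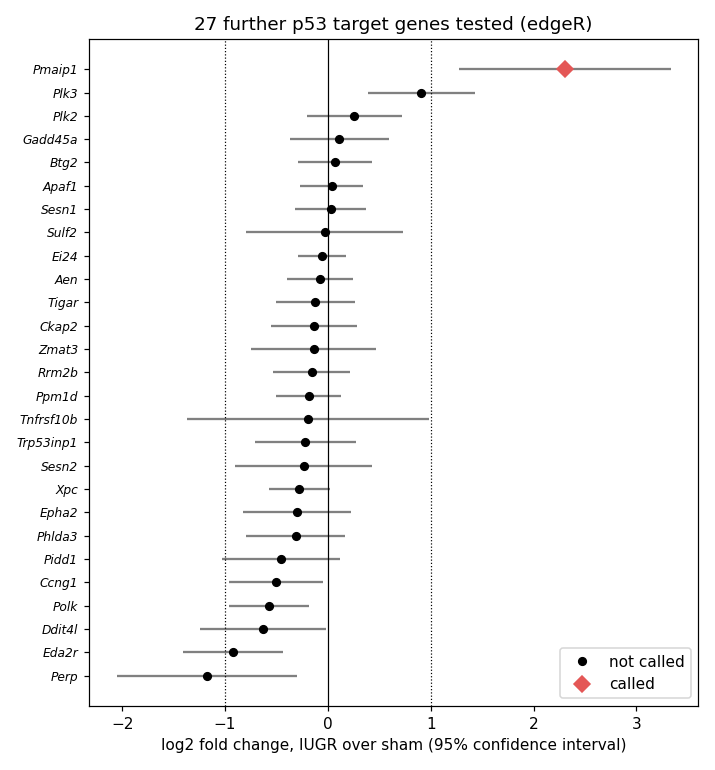
log2 fold change of IUGR over sham (x axis) for the 27 further p53 targets tested, with the 95% confidence interval from edgeR's fit; the red diamond is called and dotted lines mark the fold criterion. Pmaip1, at 2.30, lies apart at the top, and 20 of the 27 lie below 0.

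Pmaip1 encodes Noxa, a BH3-only protein that binds Mcl1 and stands in both the list of p53 targets and that of Bcl2-family genes. Its level was 3.22, 9.22, 6.83 and 2.21 CPM in IUGR and 1.39, 0.866, 1.02 and 1.07 CPM in sham, from 10 to 150 counts per library. All 4 IUGR samples lay above all 4 sham samples, and T1-3 and T1-4 were the highest. The log2 fold change was 2.30 (SE 0.47, interval 1.27 to 3.33), a fitted level 4.94-fold that of sham, with an adjusted p of 0.0402.

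The call of Pmaip1 was close to the threshold. It held in 1 of 8 fits that left out a sample, that without T1-5 (adjusted p = 0.0133). The other 7 gave adjusted p values from 0.0582 to 0.129 and log2 fold changes from 1.94 to 2.52. DESeq2 called it (adjusted p = 0.000417) and limma-voom did not (0.0812). With mt-Rnr1 as a covariate the log2 fold change was 2.07 (adjusted p = 0.0803), and it was 1.21 among the libraries with lower mt-Rnr1 and 3.09 among those with higher. Xist was high in 3 of the 4 IUGR samples and 1 of the 4 sham samples, and with Xist as a covariate the log2 fold change was 2.14 (adjusted p = 0.257). The direction was higher in IUGR in all 21 alternatives. Because the groups did not overlap, the direction in the fits on fewer samples was fixed in advance.

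Besides Pmaip1, 3 targets had groups that did not overlap; they were picked after their values were seen, and none was called by edgeR, DESeq2 or limma-voom. Plk3, a stress-activated kinase, was 12.6, 11.7, 9.27 and 7.76 CPM in IUGR and 4.44, 7.10, 5.33 and 5.13 in sham (log2 fold change 0.91, adjusted p = 0.102). Eda2r encodes a death receptor of the tumour necrosis factor family and lies on the X chromosome. It was 6.67, 6.82, 6.49 and 7.68 CPM in IUGR and 9.71, 10.7, 15.5 and 16.5 in sham (-0.92, adjusted p = 0.0712). With Xist as a covariate in edgeR, its log2 fold change was -0.82 (adjusted p = 0.384). Perp, a membrane protein of desmosomes and of apoptosis, was 7.94, 6.21, 2.11 and 11.3 CPM in IUGR and 18.5, 12.6, 17.6 and 13.9 in sham (-1.18, adjusted p = 0.228). With DESeq2 the adjusted p was 0.00692 for Eda2r and 0.0131 for Plk3, whose log2 fold changes of -0.90 and 0.94 missed the fold criterion, and it was 0.0724 for Perp. Because they were picked for this, Perp and Eda2r were lower in every IUGR sample than in any sham sample. The summed choroid plexus markers were too. Among sham samples those markers were highest in S1-4, where Eda2r was lowest and Perp highest. They were lowest in S3-4, where Eda2r was highest. The part of choroid plexus cells in either gene was not tested.

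**Figure D5:**
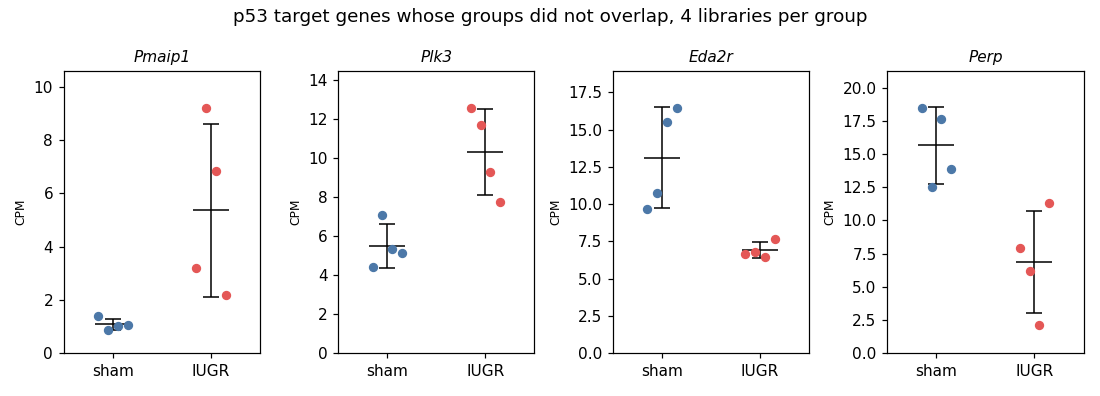
Level of Pmaip1, Plk3, Eda2r and Perp in CPM (y axes from 0, scaled per gene) in sham (blue) and IUGR (red); each point is 1 library, the horizontal mark is the mean and the bar is 1 SD (n = 4). Pmaip1 and Plk3 are higher and Eda2r and Perp lower in all 4 IUGR libraries than in any sham library, and the 2 highest Pmaip1 points, 9.22 and 6.83 CPM, are T1-3 and T1-4.

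Beyond Pmaip1, no other gene of the Bcl2 family passed the test. Of 12 tested genes outside the 9, 5 were higher and 7 lower (median log2 fold change -0.03), where 55.5% of all genes were lower. Pmaip1 was the 1 called by edgeR and by DESeq2, against 1.46% of all genes called by edgeR and 0.102% called higher. Bak1, the second pore-former, was 19.3 CPM in IUGR and 18.5 in sham (log2 fold change 0.06, SE 0.19). The BH3-only genes Hrk, at 24.1 and 17.1 CPM, and Bid, at 12.98 and 9.75 CPM, had log2 fold changes of 0.49 and 0.41 and did not pass the test (adjusted p = 0.845 and 0.718). Hrk and Bid were singled out after their values were seen.

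Of 23 caspases, adaptors and inhibitors of apoptosis tested, none was called by edgeR, DESeq2 or limma-voom, against 1.46% of all genes by edgeR. At an unadjusted p under 0.05 there was 1 of 23, against 11.1% of all genes, and the groups did not overlap in 1 of 23, against 7.14%. The list gives 10 higher and 13 lower genes, and the median log2 fold change was -0.01. Casp6, a caspase that cleaves nuclear lamins, was 13.4 ± 1.51 CPM in IUGR and 15.4 ± 1.72 CPM in sham (SD, n = 4; log2 fold change -0.21, adjusted p = 0.905). Apaf1, which assembles the apoptosome, was 106 CPM in IUGR and 104 CPM in sham.

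Upstream of p53, 0 of 17 tested kinases and sensors of DNA damage were called by edgeR, DESeq2 or limma-voom and 0 had an unadjusted p under 0.05, where edgeR gave 1.46% and 11.1% of all genes. Of these, 4 were higher and 13 lower, within a range of log2 fold changes from -0.18 to 0.09. Atr, the kinase of stalled replication forks, was 141 ± 25.6 CPM in IUGR and 160 ± 35.8 CPM in sham (SD, n = 4; log2 fold change -0.18, adjusted p = 0.989), and its partner Rad17 lay between 46.0 and 60.5 CPM over IUGR samples and between 45.4 and 75.5 over sham samples (-0.17, adjusted p = 0.984).

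Of the other CDK inhibitors, 4 were tested and 0 were called by any of the 3 tools, with 0 at an unadjusted p under 0.05, against 1.46% and 11.1% of all genes by edgeR. Cdkn1c (p57) was 184.3, 394.2, 158.5 and 174.9 CPM in IUGR and 157.2, 162.5, 180.9 and 168.9 CPM in sham. T1-3 stood far above the other 7, and the log2 fold change was 0.45 (SE 0.26, adjusted p = 0.689) with it and 0.0757 without it. Cdkn2c (p18) was 42.5 ± 11.8 CPM in IUGR and 50.5 ± 5.39 CPM in sham (SD, n = 4; log2 fold change -0.25, adjusted p = 0.916), and its log2 fold change was -0.0396 without T1-3 and -0.16 without S1-4. Cdkn2a, the source of the Mdm2 inhibitor Arf, was on the list but was not found among the genes counted, so it was not tested.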

How the data were processed

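Total RNA of E15.5 hippocampi was sequenced after removal of rRNA with Ribo-Zero Gold (TruSeq Stranded, single reads, HiSeq). The authors aligned reads to GRCm38 and deposited raw counts per gene; the submitters' processing notes name Novoalign 2.8 and mm10. The counting program, annotation and strand setting are not given in the sources used here. Genes were matched by identifier to GENCODE M21 (16124 of 16397), and rows that did not match were left out of the main test. In the counts, 175 rows had no name (0.290% of counts). The 13707 protein-coding genes whose counts averaged 10 or more and less than 50000 over the 8 samples were tested in edgeR 4.0.16 under R 4.3.3 with TMM, the quasi-likelihood test and Benjamini-Hochberg adjustment over all of them. SEs were derived from the F statistic. DESeq2 1.42.0 and limma 3.58.1 (voom), other scalings and filters, each sample left out and the S1 or S3 shams alone were alternatives. The test was checked on simulated data. The 9 genes, the lists and the rules were chosen with earlier results of these data known. Named from each list were the called genes or, where none was called, the 2 with the smallest p at a mean count of at least 50; genes most alike were the 3 with the highest Pearson correlation of log2 CPM over the 8 samples at that count. Genes described as picked after their values were seen, and Mdm4, Bak1 and Apaf1, fall outside this rule. Some genes of the lists are not reported here.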

Additional observations from a re-analysis of the deposited data

Results flagged for a closer look

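Among 42 groups of 4 samples checked for a sample apart from the rest, 1 stood out: Cdkn1c (p57) in T1-3, at 394.2 CPM against 158.5 to 184.3 CPM in the other 3 IUGR samples. Without T1-3 the log2 fold change of Cdkn1c was 0.0757, against 0.45 with it. Chance alone flags about 1 in 20 such groups. T1-3 also had the highest summed level of the 7 meningeal markers (1402 CPM, against 55.2 to 451.2 CPM in the other IUGR samples), and their part in the level of Cdkn1c was not tested.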

How the results depend on the processing

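No paired analysis was possible because the replicate numbers only name samples in accession order. No member was called in any of 21 alternatives, 4 of them (the mt-Rnr1 and Xist covariates and the 2 mt-Rnr1 sets) chosen after the data were seen. The count of called genes, 200, was 425 with DESeq2, 328 with limma-voom, 41 to 298 with 1 sample left out (65 without T1-1, 111 without T1-4, 41, 128, 105 and 60 without S1-4, S1-6, S3-1 and S3-4), 0 with the S1 shams, 2 with the S3 shams, and 0 with the Xist covariate and in either mt-Rnr1 set. The 1 call among p53 targets and among other Bcl2-family genes, Pmaip1, became 0 with limma-voom, the S1 or S3 shams, either covariate and either set, and 0 to 1 with 1 sample left out. Members whose groups did not overlap numbered 0 with RLE scaling, without a filter, with filterByExpr and with the S3 shams, 0 to 2 with 1 sample left out (0 without T1-3, S1-4 or S1-6, 2 without T1-5), and 7 of 9 in the set with higher mt-Rnr1, where 2 face 2 and 34.8% of all tested genes did not overlap (1 of 9 in the lower set, against 31.5%). The Bax to Bcl2 difference was 0.28 to 0.61 with 1 sample left out, and the exact p was 0.0286 without T1-1 and at least 0.114 otherwise.

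Cdkn1a, Bbc3, Bcl2 and Bcl2l1 kept their direction throughout, though Cdkn1a was -0.67 to -0.0874 with 1 sample left out. Trp53 reversed with limma-voom (0.0168) and in the lower mt-Rnr1 set (0.35), and was -0.28 to 0.23 with 1 sample left out. Mdm2 reversed with the S3 shams (0.0188), the Xist covariate (0.0181) and the lower set (0.0555), and was -0.13 to 0.0386 with 1 sample left out. Bax reversed with the Xist covariate (-0.0399) and the lower set (-0.14), and was -0.0478 to 0.11 with 1 sample left out. Bcl2l11 reversed in the lower set (0.15). Mcl1 reversed with the S3 shams (-0.0512) and the lower set (-0.00976), and was -0.0222 to 0.0715 with 1 sample left out. Rad17 reversed with the Xist covariate (0.0155) and Atr with the S1 shams (0.10). The cause was not tested, beyond the fewer samples of the smaller fits. Of the 9 genes, Trp53 and Cdkn1a had the widest intervals. A processed pseudogene, Trp53-ps, shares 3.64% of 50-base windows with Trp53 and is not among the genes counted.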
